A study of Mus musculus with 32 samples.

Results

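The genes described here are 7 genes whose products shape chromosomes and the nuclear envelope in dividing cells: Top2a, Mki67, Hmgb2, Smc2, Smc4, Cenpa and Lmnb1. They were chosen by symbol, taking all probe sets annotated to 1 gene only, and all 7 were found, among 8251 genes with such a probe set. Mki67 had 2 probe sets (161931_r_at and 99457_at) and the other genes had 1 each (99578_at for Top2a, 93250_r_at for Hmgb2, 97421_at for Smc2, 101906_at for Smc4, 100616_at for Cenpa and 160517_at for Lmnb1), 8 in all.

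When a cell divides, its replicated DNA has to be untangled, folded into compact chromosomes, and attached to the spindle through the centromeres, while the nuclear lamina comes apart and is rebuilt. Many genes of these steps are transcribed mainly late in the cell cycle. In an adult liver nearly all cells are at rest, and removing part of the organ brings the remaining hepatocytes into the cell cycle in a fairly synchronous wave.

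Expression was measured in 32 livers of male C57BL/6 mice aged 3 months with a 1-colour Affymetrix array, at 0, 20, 30 and 40 h after partial hepatectomy. All animals were homozygous for a floxed allele of Rps6, the gene of a protein of the small ribosomal subunit. Livers of mice with the mx-cre transgene (mx-cre PLUS) were compared with livers of floxed mice without it (mx-cre MINUS), to follow the response to hepatectomy after conditional loss of Rps6. The MX promoter of the transgene responds to interferon, and polyinosinic-polycytidylic acid was injected to delete Rps6, per the design text. This promoter is not restricted to hepatocytes, and the injected compound itself induces interferon. The sources used here do not give whether MINUS mice were injected or how long before surgery the injection was made. Of the 8 groups 6 held 4 livers, PLUS at 30 h held 3 and PLUS at 40 h held 5. Livers are named by their letters (A to E). Batches PHX2 and PHX3, as the labels call them, both occur in every group, but MINUS at 40 h has only liver D from PHX2, and PLUS at 30 h has only liver A from PHX3. The labels name no sham-operated livers, so removal of tissue cannot be told apart from other effects of surgery or of elapsed time.

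The Rps6 probe set, shared with the pseudogene Rps6-ps4, lay at log2 values of 10.99 to 11.82 in MINUS and 6.24 to 7.69 in PLUS livers. Each array's mean correlation with its own group was between 0.943 and 0.991. It was under 0.95 for 3 arrays: MINUS 30 h liver C, PLUS 30 h liver A and PLUS 40 h liver D. Of the marker lists, 8 hepatocyte markers were on the array and none was at background in any group. In bulk liver, fewer cells of a type and less RNA per cell cannot be told apart.

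Promoter sequence was at hand for 5 of the 7 genes, from RefSeq on GRCm38.p6, and is shown because these genes moved together at 40 h. The window runs from 250 bases before to 50 after the annotated start, and the part outside the annotated gene is printed, 5′ to 3′ on the gene's strand. Capitals mark the CCAAT box (CCAAT, or ATTGG on the other strand), to which the factor NF-Y binds, and 2 spellings of the cell cycle genes homology region, or CHR (TTTGAA, or TTCAAA on the other strand, and the palindrome TTCGAA), through which DREAM and MuvB complexes act on late cell cycle genes. The regions are chr11:99024200-99024439 (minus strand) for Top2a, chr7:135716451-135716629 (minus strand) for Mki67, chr8:57511593-57511842 (plus strand) for Hmgb2, chr4:52438971-52439220 (plus strand) for Smc2 and chr5:30666636-30666876 (plus strand) for Cenpa.

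Top2a: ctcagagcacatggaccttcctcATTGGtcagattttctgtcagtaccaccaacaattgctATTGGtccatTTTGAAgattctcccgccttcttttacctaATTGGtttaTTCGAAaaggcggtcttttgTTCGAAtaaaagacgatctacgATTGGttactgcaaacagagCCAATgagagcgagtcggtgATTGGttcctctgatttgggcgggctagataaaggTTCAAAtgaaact

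Mki67: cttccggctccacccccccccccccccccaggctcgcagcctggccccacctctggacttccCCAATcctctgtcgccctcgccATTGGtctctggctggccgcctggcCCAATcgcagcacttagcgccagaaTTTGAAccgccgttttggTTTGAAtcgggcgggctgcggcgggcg

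Hmgb2: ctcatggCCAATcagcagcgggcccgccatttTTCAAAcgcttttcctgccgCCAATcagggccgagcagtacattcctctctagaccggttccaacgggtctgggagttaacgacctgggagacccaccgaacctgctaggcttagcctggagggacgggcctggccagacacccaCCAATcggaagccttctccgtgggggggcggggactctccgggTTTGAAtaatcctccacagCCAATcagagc

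Smc2: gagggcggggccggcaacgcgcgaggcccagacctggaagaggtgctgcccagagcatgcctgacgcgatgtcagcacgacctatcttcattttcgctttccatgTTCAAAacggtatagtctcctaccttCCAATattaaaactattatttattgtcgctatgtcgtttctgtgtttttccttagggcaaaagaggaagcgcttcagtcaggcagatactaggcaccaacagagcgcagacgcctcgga

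Cenpa: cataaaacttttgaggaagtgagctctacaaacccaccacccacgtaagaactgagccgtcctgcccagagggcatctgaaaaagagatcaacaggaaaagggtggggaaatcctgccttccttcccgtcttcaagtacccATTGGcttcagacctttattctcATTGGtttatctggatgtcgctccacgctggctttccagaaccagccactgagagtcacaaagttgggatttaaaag

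All 5 windows held both a CCAAT box and a CHR spelling, which 7.52% of the 32851 promoter windows of the same length held. CCAAT alone was in 37.4%, TTTGAA in 17.9% and TTCGAA in 1.56% of them. The Top2a window held 6 CCAAT boxes, that of Hmgb2 4, that of Mki67 3, that of Cenpa 2 and that of Smc2 1, while 3.37% of all windows held 3 or more. TTCGAA was found in the Top2a window only, at 2 places, beside 2 matches to TTTGAA. The Mki67 and Hmgb2 windows also held 2 matches to TTTGAA each. Of the Smc2 window's 2 matches to TTTGAA 1 lies past the start, and so does the 1 match of Cenpa, and these are not printed. TTCCCGC and TTTGGCGC, spellings of the E2F site searched on both strands, were in 4.60% and 0.514% of all windows and in none of these 5. The letters searched do not overlap one another. A match describes the letters of the window and shows no binding.

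Several of the probe sets lay at or near background. A probe set was taken to be at background in a group when the group mean was under the 30th percentile of its arrays, which lay between 4.67 and 4.79 on the log2 scale. By that measure Hmgb2 and Mki67 99457_at were at background in all 8 groups, Smc2 in 7 (all but MINUS at 40 h), Mki67 161931_r_at in 2, and Top2a, Smc4, Cenpa and Lmnb1 in none. The filter for testing asked for a value above that percentile on at least 3 arrays. It kept 6 of the 8 probe sets and left out Hmgb2, above it on 0 arrays, and Mki67 99457_at, above it on 2. Smc2 passed on 4 arrays, 3 of them MINUS livers at 40 h, so that its high group decided its entry. For the 2 probe sets left out, differences and adjusted p come from a fit without the filter over all 12422 probe sets, and are named so. Counts of unadjusted p are over all 8 probe sets and take these 2 from that fit. The shares beside those counts are over the 9249 probe sets past the filter, so the sets are not quite alike. Values this low carry much background signal, so a log2 difference there is not a fold of transcript number.

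**Figure D1:**
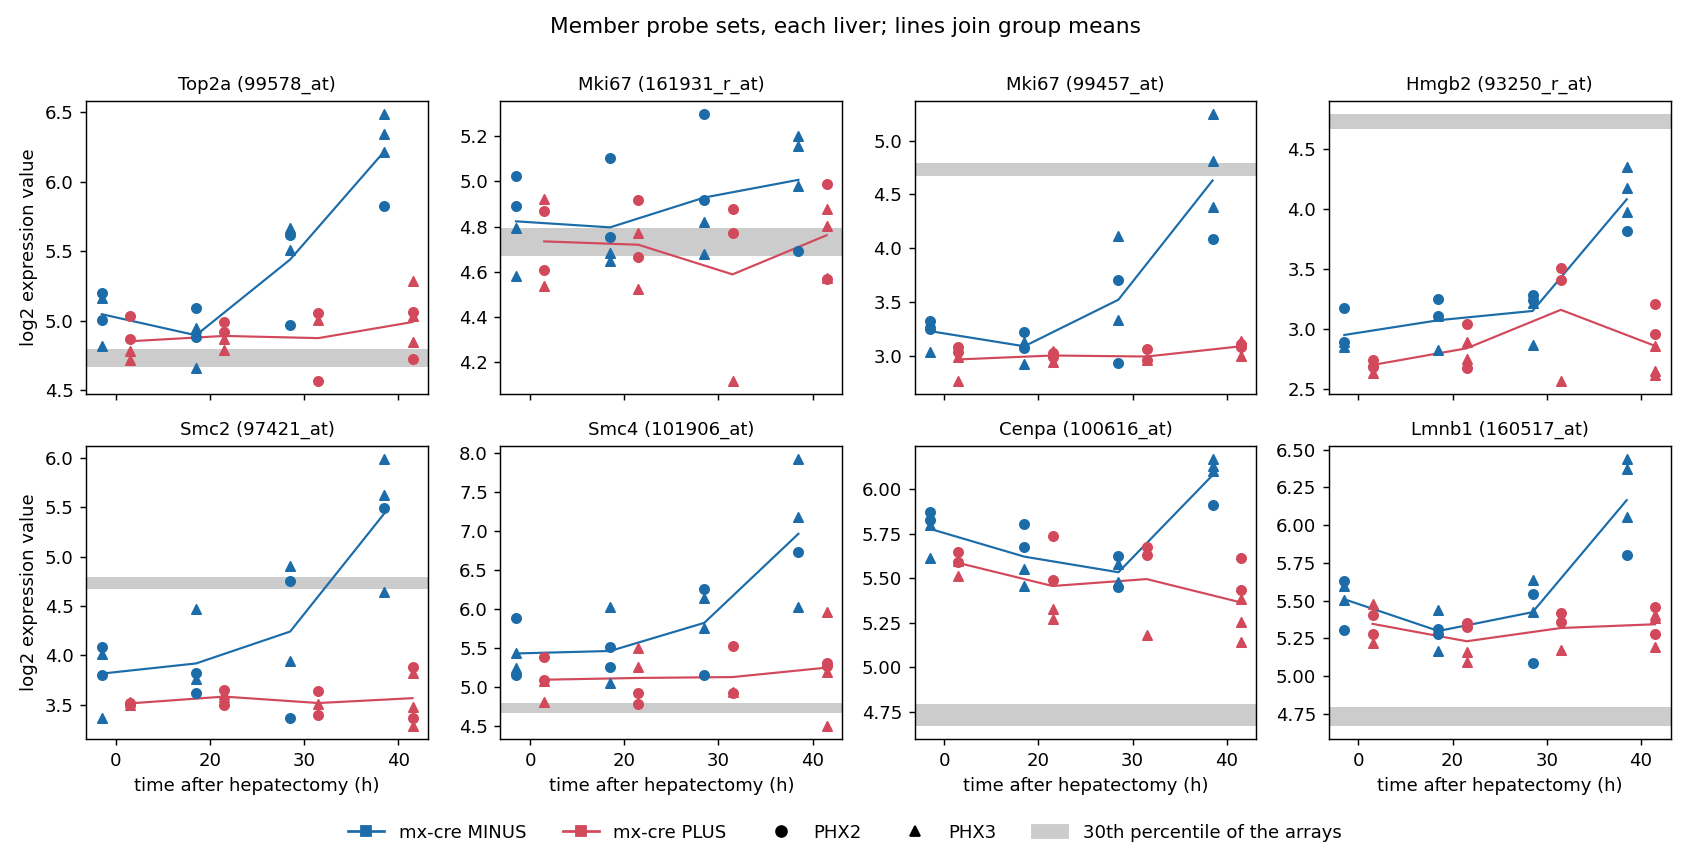
Log2 expression value (vertical axis) of each member probe set in each liver, by time after hepatectomy in h, for mx-cre MINUS (blue) and PLUS (red), with circles for PHX2, triangles for PHX3, lines through group means and a grey band for the 30th percentile of the arrays. The MINUS mean at 40 h is the highest group mean in all 8 panels, from 4.08 for Hmgb2 to 6.97 for Smc4, and the Hmgb2 points stay under the grey band in every group.

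Top2a encodes topoisomerase II alpha, which passes one DNA duplex through another and so untangles sister chromatids. In MINUS livers at 40 h it read 6.21, 6.49, 6.35 and 5.83 (A to D), and in PLUS livers at 40 h 5.03, 4.85, 5.28, 5.06 and 4.72 (A to E). The groups did not overlap: the lowest MINUS liver, D, lay above the highest PLUS liver, C. At 0 h the values were 5.16, 5.01, 4.82 and 5.20 in MINUS and 4.78, 4.72, 4.87 and 5.04 in PLUS livers. At 30 h MINUS livers read 5.66, 5.51, 4.97 and 5.62, and PLUS livers 5.0, 5.05 and 4.56. Livers A, B and D of MINUS at 30 h thus lay above every 0 h liver, and liver C lay among them. The genotype difference at 40 h (PLUS minus MINUS) was -1.22 (SE 0.145, adjusted p = 1.72e-06), a 2.33-fold lower signal. The PLUS mean there, 4.99, was not far above the 30th percentile of its arrays, 4.74. From 0 to 40 h the gene rose in MINUS livers by 1.16 (SE 0.153, adjusted p = 1.47e-05), while in PLUS livers the difference was 0.13 with a 95% confidence interval of -0.16 to 0.43. No liver of another group reached the lowest MINUS liver at 40 h, and the nearest was MINUS liver A at 30 h.

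Smc2 and Smc4 encode the paired ATPase arms of condensin, the ring complex that folds chromatin into compact mitotic chromosomes. Smc2 read 4.64, 5.99, 5.62 and 5.50 in MINUS livers at 40 h and 3.48, 3.29, 3.82, 3.37 and 3.88 in PLUS livers. At 0 h it read 4.01, 4.09, 3.36 and 3.80 in MINUS and 3.50, 3.53, 3.52 and 3.51 in PLUS livers. The groups were apart at 40 h, and the PLUS livers stayed at background at both times. At 30 h the MINUS livers were widely spread for Smc2, with livers A and D at 4.90 and 4.75, B at 3.94 and C at 3.37. Livers A and D of MINUS at 30 h lay above liver A of MINUS at 40 h. Smc2 differed by -1.86 between genotypes at 40 h (SE 0.252, adjusted p = 1.42e-05) and rose by 1.61 from 0 to 40 h in MINUS livers (adjusted p = 3.06e-04).

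Smc4 read 6.03, 7.93, 7.18 and 6.74 in MINUS livers at 40 h and 5.20, 4.50, 5.97, 5.27 and 5.32 in PLUS livers. Liver A of MINUS and liver C of PLUS came close to each other, without overlap. At 0 h MINUS livers read 5.44, 5.88, 5.25 and 5.16, and PLUS livers 5.09, 4.82, 5.09 and 5.39. At 30 h MINUS livers read 6.14, 5.75, 5.15 and 6.26, and livers A and D there stood above liver A at 40 h. Smc4 had the widest spread of the members at 40 h (SD 0.80 in MINUS, n = 4, and 0.52 in PLUS, n = 5). Its genotype difference was -1.71 (SE 0.304, adjusted p = 6.20e-04), and with only the 40 h arrays in the fit the adjusted p was 0.0658. In MINUS livers it rose by 1.52 from 0 to 40 h (SE 0.322, adjusted p = 0.00406).

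Hmgb2 encodes a high mobility group protein that bends DNA and is abundant in dividing cells. It read 4.36, 4.18, 3.98 and 3.82 in MINUS livers at 40 h and 2.62, 2.86, 2.65, 3.21 and 2.96 in PLUS livers. At 0 h it read 2.89, 3.17, 2.85 and 2.89 in MINUS and 2.74, 2.64, 2.68 and 2.75 in PLUS livers. Over all livers its values lay between percentiles 0.0721 and 24.0 of their arrays, and the groups still did not overlap at 40 h. At 30 h PLUS livers read 2.57, 3.41 and 3.51, and livers B and C, both of PHX2, lay above every MINUS liver of that time. Without the filter, Hmgb2 differed by -1.25 at 40 h (SE 0.137, adjusted p = 5.48e-07) and rose by 1.18 in MINUS livers (adjusted p = 6.06e-06).

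Cenpa encodes the histone H3 variant that marks the centromere and seeds the kinetochore. It read 6.13, 6.10, 6.17 and 5.92 in MINUS livers at 40 h and 5.25, 5.14, 5.38, 5.62 and 5.43 in PLUS livers, with no overlap. At 0 h it read 5.80, 5.83, 5.61 and 5.87 in MINUS and 5.51, 5.59, 5.59 and 5.65 in PLUS livers. Unlike Top2a, Cenpa had means at 20 and 30 h (5.62 and 5.53) under that of 0 h (5.78) in MINUS livers, with overlapping livers. The genotype difference at 40 h was -0.74 (SE 0.0903, adjusted p = 2.45e-06), the smallest of the 7 that were called. The rise from 0 to 40 h in MINUS livers was 0.34 (SE 0.0957, adjusted p = 0.0358). It fell short of the threshold when MINUS liver B, C or D at 0 h, or A, B or C at 40 h, was left out (adjusted p up to 0.139), and also without the batch term (0.147). In PLUS livers the 40 h mean was the lowest of the 8 groups, and the difference from 0 h was -0.21 (95% confidence interval -0.39 to -0.02, adjusted p = 0.158).

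Mki67 encodes Ki-67, the proliferation marker that coats mitotic chromosomes and keeps them apart. Its 2 probe sets disagreed. Probe set 99457_at read 4.38, 5.24, 4.81 and 4.08 in MINUS livers at 40 h and 3.12, 3.0, 3.14, 3.08 and 3.11 in PLUS livers. In PLUS livers of all times it stayed between 2.77 and 3.14. Without the filter it differed by -1.53 at 40 h (SE 0.174, adjusted p = 1.02e-06) and rose by 1.38 in MINUS livers (adjusted p = 1.87e-05). Probe set 161931_r_at read 4.98, 5.15, 5.20 and 4.69 in MINUS livers at 40 h and 4.88, 4.80, 4.57, 4.99 and 4.57 in PLUS livers. These overlapped, the difference was -0.27 (95% confidence interval -0.56 to 0.02, adjusted p = 0.342), and 17 of the 28 livers outside that group reached its lowest MINUS liver. The suffix _r_at marks a probe set designed under relaxed rules, which Hmgb2 93250_r_at carries too.

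Lmnb1 encodes lamin B1, a filament protein of the lamina under the inner nuclear membrane. It read 6.44, 6.05, 6.37 and 5.80 in MINUS livers at 40 h and 5.38, 5.41, 5.19, 5.45 and 5.28 in PLUS livers. At 0 h it read 5.60, 5.31, 5.50 and 5.63 in MINUS and 5.48, 5.22, 5.28 and 5.41 in PLUS livers. The PLUS livers of both times shared one range, and the MINUS livers of 40 h stood above all others. The genotype difference at 40 h was -0.82 (SE 0.116, adjusted p = 2.72e-05), and the rise in MINUS livers was 0.65 (SE 0.123, adjusted p = 0.00133).

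At 40 h, then, 5 of the 6 probe sets tested were lower in PLUS than in MINUS livers by limma at an adjusted p under 0.05, where 3.07% of all 9249 tested probe sets were lower. Among the 5 was Smc2, whose MINUS livers at 40 h decided its entry past the filter. The filtered counts that hold it, here and below, thus lean on its high group. Without the filter 7 of 8 were lower, against 2.36% of 12422. The exception in both fits was Mki67 161931_r_at. The genotypes did not overlap for 7 of the 8 probe sets, and 2.61% of all probe sets were lower in PLUS without overlap. The median difference of the 8 was -1.24, beside a median of -0.01 over all tested probe sets. The 5 calls held when any 1 liver of either group was left out, and without the 3 arrays that correlated under 0.95 with their group.

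From 0 to 40 h, 5 of 6 rose in MINUS livers (2.32% of all tested probe sets rose), and 7 of 8 without the filter (1.94%). In PLUS livers 0 of 6 were called in either direction by limma, and 9.66% of all tested probe sets were. An unadjusted p under 0.05 was found for 1 of 8, Cenpa, and for 23.8% of all tested. With so few probe sets these counts do not set the members apart from all tested. The 95% confidence intervals of the 8 PLUS differences ran at most up to 0.77 (Smc4), and those of the 7 probe sets that rose in MINUS livers began at 0.15 (Cenpa) or higher. The genotype difference at 40 h and the rise in MINUS livers share the MINUS livers of 40 h and are not independent.

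**Figure D2:**
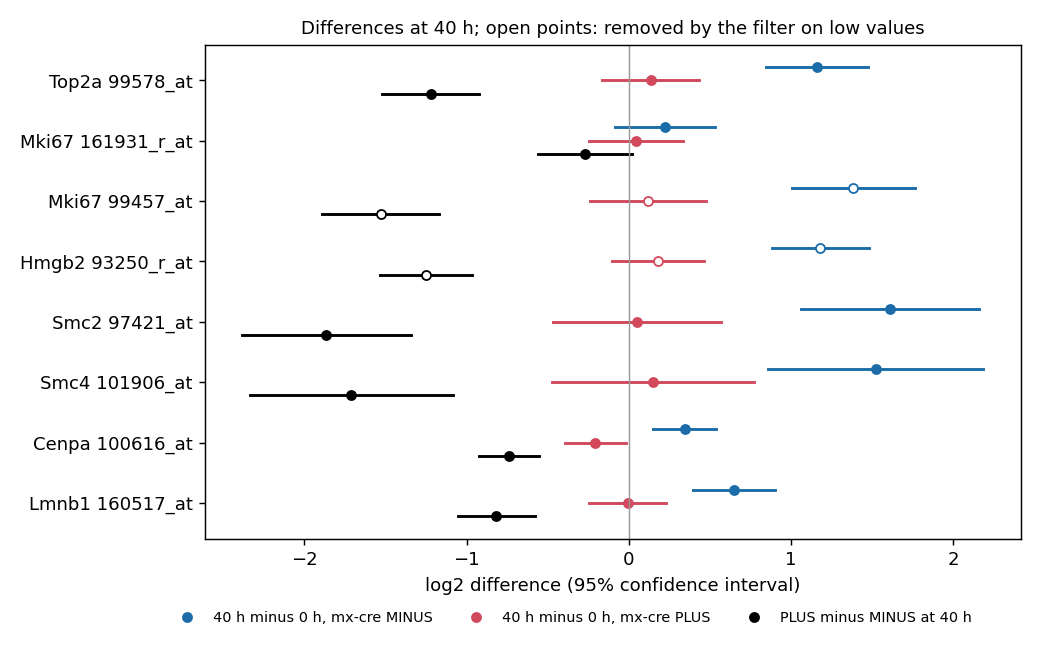
Log2 difference with its 95% confidence interval (horizontal axis) for each member probe set (vertical axis): 40 h minus 0 h in mx-cre MINUS (blue), the same in PLUS (red), and PLUS minus MINUS at 40 h (black), with open points for probe sets that the filter left out. Black points run from -0.27 (Mki67 161931_r_at) to -1.86 (Smc2), and the red points lie between -0.21 and 0.18.

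The interaction asks whether the genotype difference at 40 h exceeded that at 0 h. At 0 h all 8 differences were already below 0, from -0.09 (Mki67 161931_r_at) to -0.34 (Smc4), but none was called by limma and 0 of 8 had an unadjusted p under 0.05 (0.0649% of all tested were called). The interaction was called for 3 of 6: Top2a (-1.03, SE 0.210, adjusted p = 0.0111), Smc2 (-1.56, SE 0.366, adjusted p = 0.0405) and Cenpa (-0.55, SE 0.131, adjusted p = 0.0483). Over all tested probe sets 0.584% were called. Without the filter 4 of 8 were called, with 0.475% of all, namely Top2a, Smc2, Hmgb2 (-1.0, adjusted p = 0.00969) and Mki67 99457_at (-1.27, adjusted p = 0.01), while Cenpa was at 0.0508. Smc4 (-1.37, adjusted p = 0.337) and Lmnb1 (-0.65, adjusted p = 0.0867) were not called.

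These interaction calls differed in how they held up. Of the 17 fits that left out 1 liver, Top2a lost its call in the one without MINUS liver C at 0 h (adjusted p = 0.0521). It was not called within PHX2 alone (-0.78, adjusted p = 0.995) or PHX3 alone (-1.06, adjusted p = 0.0743). Smc2 was called in 4 of these 17 fits, those without MINUS liver B at 0 h, MINUS liver A at 40 h, or PLUS liver C or E at 40 h. Cenpa was called in 3 of 17, those without MINUS liver D, PLUS liver C or PLUS liver D at 40 h. Hmgb2 and Mki67 99457_at, without the filter, were called in 17 of 17. Lmnb1 became called without MINUS liver D at 40 h (-0.79, adjusted p = 0.00808). It was also called after median centring (adjusted p = 0.0478), after quantile normalization (0.0389), with array weights (2.91e-04) and without the 3 arrays under 0.95 (0.0288).

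The earlier times gave little that passed the test. Between genotypes 0 of 6 were called by limma at 20 h, with 0 of 8 at an unadjusted p under 0.05 (0.292% of all tested were called). At 30 h 0 of 6 were called as well (0.281% of all), with 4 of 8 at an unadjusted p under 0.05, as were 11.3% of all tested. The 4 were Top2a, both Mki67 probe sets and Smc2. Against 0 h, 0 of 6 were called in MINUS livers at either time by limma, where 7.37% of all tested were called at 20 h and 3.14% at 30 h. An unadjusted p under 0.05 was found for 0 of 8 at 20 h and for 2 of 8 at 30 h, Top2a (0.39) and Cenpa (-0.24), which lay in opposite directions. Over all tested probe sets it was found for 21.3% and 16.1%. In PLUS livers 0 of 6 were called either, and of all tested 9.07% were called at 20 h and 9.89% at 30 h. With so few probe sets, counts of 0 do not set the members apart from all tested. There the unadjusted p was under 0.05 for 0 of 8 at 20 h and for 1 of 8 at 30 h, Hmgb2, against 23.3% and 24.5% of all tested.

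At 30 h the outcome turned on MINUS liver C, one of the arrays that correlated under 0.95 with its group. Liver C was the lowest of its group for 6 of the 8 probe sets, Top2a, Mki67 99457_at, Smc2, Smc4, Cenpa and Lmnb1. Without it, Top2a differed by -0.72 between genotypes at 30 h (SE 0.159, adjusted p = 0.0159) and Smc2 by -1.03 (SE 0.268, adjusted p = 0.0359), and Top2a rose from 0 to 30 h in MINUS livers by 0.55 (adjusted p = 0.0484). With all livers the Top2a values were -0.56 (adjusted p = 0.139) and 0.39 (adjusted p = 0.174). Array weights also gave calls: at 30 h between genotypes for Top2a (-0.64) and Smc2 (-1.21) and from 0 h in MINUS livers for Top2a (0.57) and Smc2 (0.91), and at 20 h from 0 h in PLUS livers for Cenpa (-0.18, adjusted p = 0.0494). The part of this array's quality in the result was not tested.

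The step from 30 to 40 h was tested in MINUS livers as well. In that step Top2a rose by 0.77 (adjusted p = 0.00624), Smc2 by 1.18 (adjusted p = 0.02), Cenpa by 0.59 (adjusted p = 6.80e-04) and Lmnb1 by 0.73 (adjusted p = 7.84e-04), 4 of 6 tested where 0.951% of all rose. Without the filter, Hmgb2 rose by 0.98 (adjusted p = 3.06e-04) and Mki67 99457_at by 1.09 (adjusted p = 9.92e-04), making 6 of 8, with 0.837% of all. In PLUS livers 0 of 6 moved from 30 to 40 h by limma, as did 0 of all 9249 tested probe sets, and 0 of 8 had an unadjusted p under 0.05, against 5.19% of all. The difference of the steps was called for Cenpa (-0.67, adjusted p = 0.0271, 0.205% of all called) and, without the filter, for Hmgb2 (-1.23, adjusted p = 0.00431, 0.177% of all called). Top2a kept its step without MINUS liver C at 30 h (0.62, adjusted p = 0.0478) but not without all 3 arrays under 0.95 (0.62, adjusted p = 0.0591). Smc2 lost its step without that liver (0.91, adjusted p = 0.135). It also lost it without MINUS liver B at 30 h or B, C or D at 40 h, and with array weights (0.55, adjusted p = 0.183), when its difference from 0 to 30 h was the larger part (0.91, adjusted p = 0.0085). Smc4 gained a call without MINUS liver A at 40 h (1.44, adjusted p = 0.0187). With only the arrays of the compared groups in the fit, 0 of the 6 tested probe sets had a call in these steps or their difference by limma. The Cenpa difference of steps was lost without MINUS liver C or PLUS liver B or C at 30 h, and without MINUS liver A, B or C or PLUS liver A or B at 40 h, with adjusted p up to 0.173. It was also lost without the batch term (adjusted p = 0.0886) and with the replicate letter as a term (0.149). The difference of steps of Lmnb1 was called with array weights (-0.83, adjusted p = 0.00227) and after quantile normalization (-0.73, adjusted p = 0.0443). It was also called without the 3 arrays under 0.95 (adjusted p = 0.0304) and without MINUS liver D at 40 h (0.0104).

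The order of the groups was alike across the members at its top. MINUS livers at 40 h had the highest mean for all 8 probe sets. For Top2a, Hmgb2, Cenpa and Lmnb1 they lay above every other liver of the study, while 1 other liver reached the lowest of them for Mki67 99457_at, 2 for Smc2 and 3 for Smc4. MINUS livers at 30 h came next for Top2a, both Mki67 probe sets, Smc2 and Smc4, PLUS livers at 30 h for Hmgb2, and MINUS livers at 0 h for Cenpa and Lmnb1. Below the first place, every pair of neighbouring groups overlapped for each probe set. PLUS livers at 0 h were last for Top2a, Mki67 99457_at, Hmgb2, Smc2 and Smc4.

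Within batches the signs held where a call was made, with unequal sizes. In PHX3, with 3 MINUS and 3 PLUS livers at 40 h, the genotype differences of the 7 probe sets apart at 40 h ran from -0.88 (Cenpa) to -1.89 (Smc2). In PHX2, with 1 MINUS and 2 PLUS livers, they ran from -0.39 (Cenpa) to -1.87 (Smc2), and no probe set was called there. Top2a differed by -0.93 in PHX2 and by -1.29 in PHX3, Hmgb2 by -0.74 and -1.46, and Lmnb1 by -0.43 and -0.96. MINUS liver D, the only one of PHX2 at 40 h, was the lowest of its group for Top2a, both Mki67 probe sets, Hmgb2, Cenpa and Lmnb1, and liver A for Smc2 and Smc4. With 1 liver, batch and liver cannot be told apart there.

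The genes most like each tested member were sought by Pearson correlation over the 32 arrays with the batch term removed, a description in which the points share groups. For Top2a they were Cdk1 (r = 0.952), the kinase that drives mitosis, Cdc20 (0.940), an activator of the anaphase-promoting complex, and Cdca8 (0.939), a part of the chromosomal passenger complex. For Smc2 they were Ect2 (0.928), needed to place the cleavage furrow, Kif2c (0.918), a kinesin that takes microtubules apart, and Aurka (0.907), a centrosome kinase. Smc4 came closest to Ect2 as well (0.870), then Cdc45 (0.866), of the replicative helicase, and Mad2l1 (0.865), of the spindle checkpoint. Cenpa was most like the mitotic cyclin gene Ccnb2 (0.915), Anln (0.861), of the contractile ring, and Selenoh (0.856). Lmnb1 was most like Incenp (0.911), another passenger complex gene, Cdkn2c (0.909), a kinase inhibitor gene, and Iqgap3 (0.901). Mki67 161931_r_at was most like Mxd3 (0.766), Psd (0.748) and Aloxe3 (0.745), all at lower r than any gene named for the other members.

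Other genes of chromosome structure were taken from 8 lists with 110 genes, of which 63 were on the array and 50 were tested. At 40 h 15 of the 50 were lower in PLUS livers and 0 were higher, where 3.07% and 2.28% of all tested probe sets were. From 0 to 40 h 10 rose in MINUS livers and 0 fell, where 2.32% of all tested probe sets rose. The median genotype difference of the 50 was -0.17, beside -0.01 over all tested. The lists did not move as one, and they are given by role.

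Of condensin's other subunits both tested genes were lower in PLUS livers at 40 h: Ncaph, the kleisin of condensin I (-1.09, adjusted p = 1.50e-06), and Ncaph2, that of condensin II (-0.35, adjusted p = 0.0269). Ncaph also rose in MINUS livers (1.0, adjusted p = 2.22e-05). Cohesin, the ring that holds sister chromatids together, had 1 of 6 lower, its kleisin Rad21 (-0.71, adjusted p = 2.17e-05), which rose in MINUS livers (0.72, adjusted p = 5.39e-05). Nipbl, the cohesin loader (0.35, adjusted p = 0.168), Stag2 (0.12) and Pds5a (0.10) were not called. Among the other topoisomerases 0 of 3 were called by limma: Top3b differed by 0.06 and Top1 by -0.01, and Top3a lay nearer to 0. Among the other HMG proteins 0 of 3 were called, with Hmgb3 at -0.30 (adjusted p = 0.464), Hmgn5 at -0.19 and Hmgn1 at -0.17. Of other centromere and kinetochore genes 0 of 5 were called, with Cenpl at -0.16, Cenpb at 0.07, Cenpc1 at 0.06 and Zwint at 0.05. So Top2a and Cenpa were called between genotypes while the tested members of their own lists did not pass the test. Hmgb2, at background in every group, was called only in the fit without the filter. The other HMG genes were judged past the filter, so Hmgb2 and its list were not held to the same test. Whether Top2a, Hmgb2 and Cenpa differ from the genes of their lists was not tested.

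In the nuclear lamina and envelope list 2 of 8 were lower in PLUS livers: Tmpo, which encodes lamina-associated polypeptide 2 (-0.85, adjusted p = 0.00648), and Lbr, the lamin B receptor gene (-0.80, adjusted p = 0.00317). Lmnb2, the other B-type lamin gene, differed by -0.19 (adjusted p = 0.15) and rose by 0.27 in MINUS livers (adjusted p = 0.0377). Emd, of emerin, differed by -0.19 (adjusted p = 0.251). Of histones and histone chaperones 7 of 16 were lower and 0 higher. H2ax, the variant phosphorylated at DNA breaks, differed by -2.24 (adjusted p = 3.28e-06), H2az1, of the variant H2A.Z, by -1.89 (adjusted p = 4.33e-08), and H2az2 by -1.26 (adjusted p = 0.0035). The size for H2ax was unequal between batches, -0.97 within PHX2, with 1 MINUS liver, and -2.80 within PHX3. H2ax had also risen in MINUS livers from 0 to 20 h (1.06, adjusted p = 0.0259). The chaperone gene Npm1 had a genotype difference of the other sign at 40 h, which was not called (0.83, adjusted p = 0.0551). It rose in PLUS livers by 1.16 from 0 to 40 h (adjusted p = 0.00515), and was already up by 1.07 at 20 h and at 30 h. In MINUS livers it rose by 0.89 from 0 to 20 h (adjusted p = 0.0399). At 40 h its difference from 0 h there was 0.14 (adjusted p = 0.852). H2az2 fell by 0.90 from 0 to 40 h in PLUS livers (adjusted p = 0.0309). Npm1 and H2az2 were the only 2 of the 50 called there, where 9.66% of all tested probe sets were called.

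Of heterochromatin and DNA methylation genes 3 of 7 were lower: Uhrf1, which recruits the maintenance methyltransferase (-1.31, adjusted p = 2.74e-09), Ezh2, the Polycomb methyltransferase (-1.02, adjusted p = 3.30e-05), and Cbx5, of heterochromatin protein HP1 alpha (-0.80, adjusted p = 0.0062). Dnmt3a differed by -0.17 (adjusted p = 0.517). The interaction at 40 h was called for 5 of the 50 and for 0.584% of all tested probe sets. The 5 were Rad21, Ezh2, Uhrf1, H2ax and H2az1, a group named after its values were seen. It was lowest for H2ax (-1.95, adjusted p = 0.0122).

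**Figure D3:**
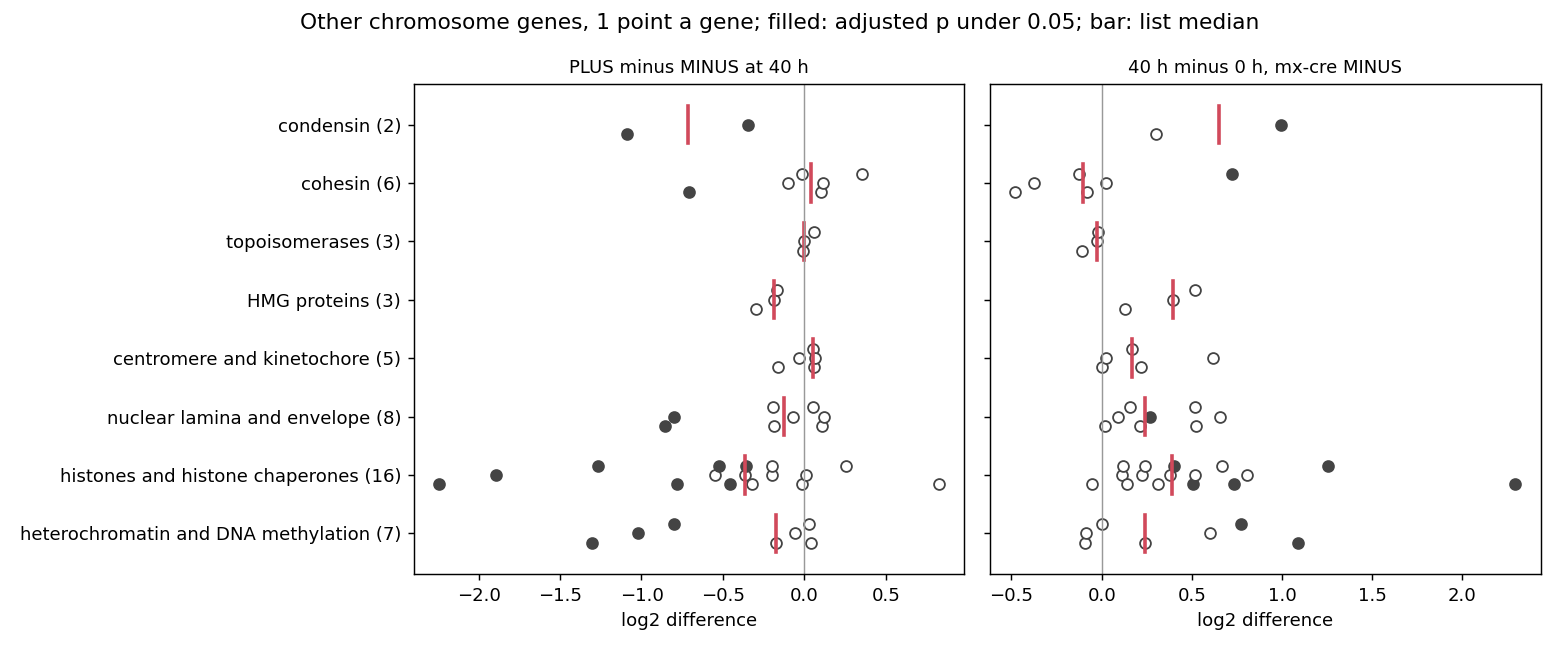
Log2 difference (horizontal axis) of each tested gene of 8 chromosome lists (vertical axis, number of genes in brackets), for PLUS minus MINUS at 40 h (left) and 40 h minus 0 h in mx-cre MINUS (right), with filled points at an adjusted p under 0.05 and bars at list medians. The filled points on the left all lie below 0, with H2ax at -2.24 the lowest, and topoisomerases, HMG proteins and centromere genes have none.

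Markers of other cells differed between genotypes beside these genes. Of 10 Kupffer cell and macrophage markers 6 were lower in PLUS livers at 40 h (median -0.75), among them Clec4f (-1.43). Of all tested probe sets 3.07% were lower and 2.28% higher at that time. Their summed linear level ran from 2389 to 3788 in MINUS and from 1311 to 2110 in PLUS livers at 40 h, and from 3044 to 3925 and 1967 to 2955 at 0 h, so that the ranges of the genotypes were apart at 0 h too. Of these 10, 5 were lower in PLUS livers at 20 h and 2 at 30 h. Between genotypes 0.292% and 0.281% of all tested probe sets were called at those times, in either direction. From 0 to 40 h 6 of the 10 fell in PLUS livers, Adgre1, C1qa, C1qc, Clec4f, Csf1r and Lyz2 (9.66% of all tested were called). In MINUS livers 0 of the 10 were called by limma over that time. Of 8 erythroid markers 2 were lower at 40 h, Hba-a1 (-3.12) and Hbb-b2 (-3.13), which encode globin chains, and both rose in MINUS livers from 0 to 40 h (by 2.23 and 2.16). The summed erythroid level at 40 h ran from 4295 to 7170 in MINUS and from 1359 to 3098 in PLUS livers. At 0 h it ran from 2419 to 3763 and from 1832 to 2914, so the ranges overlapped there. A linear sum weighs the highest markers most, and the part of the globins in it was not tested. The globins were also lower in PLUS livers at 20 h (-2.59 and -2.53). Of the neutrophil and myeloid list 1 of 7, Prtn3, was lower (-0.94), of the hepatocyte list 1 of 8, Ttr (-1.24), and of the endothelial list 1 of 9, Ptprb, was higher (0.47). Of the T and NK cell, B cell, stellate cell and cholangiocyte lists 0 of 5, 7, 9 and 3 were called by limma. No macrophage marker on the array and no erythroid marker was at background at 40 h in either genotype. The part of these cells in the results was not tested.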

How the data were processed

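The authors deposited log2 values of 12488 probe sets on 32 arrays. They used RMA, according to the submitters' processing notes. The sources used here give neither its version nor whether both batches entered it together. Base 2 was inferred from the range (2.30 to 14.12). Names came from the platform annotation with current symbols: of 12422 that were not controls, 10833 had 1 gene, 396 several and 1193 none. The members, lists and tests were chosen with earlier results of these data known.

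The fit used limma 3.58.1 (R 4.3.3, lmFit and eBayes, 2-sided) on all arrays, with 8 groups and the batch as terms. The 9249 probe sets tested exceeded the 30th percentile of an array on 3 or more arrays. Calls were made at a Benjamini-Hochberg adjusted p under 0.05 within each comparison. The steps were checked on simulated data. Named list genes are up to 4 per list with the largest genotype difference at 40 h, and the 3 genes with the highest correlation to each tested member. Differences are log2, fitted with batch, so they can depart from those of group means. The labels do not say that each liver came from its own mouse, so p-values cover only the spread between samples, which may be technical, and the number of arrays limits precision. Motifs were counted by exact match.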

Additional observations from a re-analysis of the deposited data

Results flagged for a closer look

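Hmgb2 in MINUS liver B at 0 h read 3.17, where the other 3 livers read 2.85 to 2.89, and in MINUS liver B at 30 h it read 2.86, where the others read 3.22 to 3.28. Each lies far from its group by Dixon's criterion. Of 56 groups examined 2 were so, and chance alone gives about 1 in 20. Both values are at background.

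By the interaction term in limma, a change of the genotype difference from 0 to 40 h was called for Top2a (-1.03), Smc2 (-1.56) and Cenpa (-0.55). With 1 liver left out these calls stayed in 16, 4 and 3 of 17 fits. Within PHX2 alone or PHX3 alone none of them was called. A difference between genotypes in the step from 30 to 40 h was called for Cenpa (-0.67). It stayed in 8 of 16 fits with 1 liver left out.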

How the results depend on the processing

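The 5 calls between genotypes at 40 h and the 5 in MINUS livers from 0 to 40 h each came to 0 within PHX2 alone, which has 1 MINUS liver at 40 h. Leaving out each liver gave 5 to 5 and 4 to 5. The interaction, called for 3 probe sets, was called for 0 within PHX2, 0 within PHX3, and 0 to 3 when 1 liver was left out. It was called for 4 after centring, quantile normalization, array weights, without the filter, or without the arrays under 0.95. The step from 30 to 40 h, with 5 calls over both genotypes and their difference, gave 0 within PHX2, 3 within PHX3, 8 without the filter, 0 with only the arrays compared, and 3 to 5 when 1 liver was left out. The earlier genotype comparisons, with 0 calls, gave 2 with array weights, 2 without the arrays under 0.95, and 0 to 2 without 1 liver. The earlier times against 0 h, with 0 calls, gave 3, 1 and 0 to 1. Probe sets at background in all groups, 2, were 1 by the 20th percentile and 7 by the highest of the 15 bacterial controls. One of these controls stood far above the others (6.53 to 6.76, the rest up to 4.77). By the 40th percentile Mki67 161931_r_at was at background in all 8 groups too. By that line Top2a was at background in 6 groups, Lmnb1 in 5 and Smc4 in 4. The batch, leave-out and compared-arrays settings use fewer arrays; otherwise the cause was not tested. No called result changed direction. Mki67 161931_r_at, never called in these comparisons, changed sign within PHX2: 0.08 between genotypes at 40 h, -0.27 from 0 to 40 h in MINUS livers and 0.30 in the interaction.

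The labels do not say whether the replicate letters pair the livers. Over 15 pairs of the same letter and time, the correlation of deviations from group means ran from -0.47 to 0.40, with 7 over 0.1. The 3 pairs in different batches had -0.24, -0.23 and -0.47. Batch and pairing are mixed in these values, so they do not settle it. With the letter as a replicate block the interaction was called for 1 probe set, and the counts were 5 between genotypes at 40 h and 4 in MINUS livers from 0 to 40 h. One alternative, leaving out each liver without the filter, was added after seeing the data. Centring and quantile normalization left the 2 counts at 40 h at 5. Depth on an array means signal over background: Hmgb2, Mki67 99457_at and, outside MINUS livers at 40 h, Smc2 are too close to background for their lower group to have more than a bound.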
